A study of Mus musculus with 78 samples.

Results

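The proteasome genes are the rows of the count table whose names start with Psma, Psmb, Psmc, Psmd or Psme and a number, which gave 43 of 14695 genes. They comprise 7 genes of the alpha ring and 10 of the beta ring of the 20S core, where the beta genes fall into 4 non-catalytic subunits, 3 constitutive catalytic subunits and 3 inducible catalytic subunits. The regulatory particle adds 6 ATPases, 3 other base subunits, 8 lid subunits and 3 assembly chaperones, and 5 genes encode activators of the core. The remaining gene, Psme3ip1, encodes a protein that binds the activator Psme3 and is no subunit. Psmc3ip also starts in this way but was left out by its ending. Psme2 and Psme2b are close copies whose reads could have been split between them, so each is uncertain.

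The proteasome degrades proteins that carry ubiquitin chains. Its core is a barrel in which rings of alpha subunits form the gate and rings of beta subunits hold the proteolytic sites, and the regulatory particle binds ubiquitin, unfolds the substrate with its ATPases and removes the ubiquitin. In lymphocytes much of the core is built as the immunoproteasome, with inducible catalytic subunits in place of the constitutive ones, and its products supply peptides to MHC class I.

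The cells were CD8+ T cells of C57BL/6J mice (spleen and lymph nodes), studied 3 days after activation began and exposed to each condition for 3 h. In the nutrient experiment a group in complete medium (Control) was compared with groups lacking methionine, glutamine, glucose, arginine or the branched-chain amino acids (BCAA). In the drug experiment the solvent DMSO was compared with halofuginone, which inhibits prolyl-tRNA synthetase, with Torin1, which inhibits mTOR, and with 4EGI-1, which keeps eIF4E from binding eIF4G; doses were not given in the labels used here. Each lysate gave total RNA and, from fractions 9 to 13 of 15 of a sucrose gradient, pooled polysome RNA, the mRNA carrying several ribosomes. Every group had 3 libraries in each fraction. Whether replicates came from separate cultures or animals is not stated, so p-values measure the spread between these libraries, which may be technical.

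Library totals ran from 15144663 to 54272886 counts, and proteasome genes took 0.700 to 0.803% of counts in total RNA and 0.865 to 1.13% in polysome RNA of the nutrient experiment. In the drug experiment these shares were 0.705 to 0.848% and 1.39 to 1.60%. The 7 CD8 T cell markers were all measured and summed to 1219 to 4467 CPM (counts scaled to a common library total), against 0 to 2.76 CPM for the measured CD4 T cell marker (1 of 3), 1.66 to 19.1 CPM for the measured B cell markers (2 of 6) and 3.72 to 15.9 CPM for the measured myeloid marker (1 of 6). All 43 proteasome genes passed the filter on low counts in every fit. Levels are CPM scaled by TMM within a fraction, changes are log2 fold changes ± standard error of the fit, and a gene is called at an adjusted p under 0.05 in edgeR's quasi-likelihood test. Every value is relative to the other RNAs of the same fraction: less polysomal RNA in all, fewer cells or less RNA per cell cannot be told apart or seen on this scale.

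Before any stress, most proteasome mRNAs took a larger share of polysome RNA than of total RNA. In Control 38 members were higher in polysome than in total RNA, against 37.6% of all genes tested, and 2 were lower, against 28% of all genes. The median log2 ratio of polysome over total RNA was 0.56 for the members and 0.09 over all genes. In DMSO 38 were higher (28.4% of all genes) and 3 lower (30.9%), with medians of 1.21 and -0.07. The molecule is labelled polyA RNA in the drug experiment but total RNA in the nutrient experiment, and the experiments were not tested against each other.

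By role, the catalytic subunits led in DMSO. There the constitutive catalytic subunits had a median log2 ratio of 1.79, the inducible ones 1.58 and the non-catalytic beta subunits 1.49, and the base subunits other than ATPases had 0.52. Psmb5, which carries the chymotrypsin-like site, had log2 ratios of 2.09, 2.51 and 1.72 in the 3 DMSO lysates and a fitted ratio of 2.13 ± 0.15, a 4.37-fold excess. The inducible subunit Psmb10 reached 1.93 ± 0.17 and the constitutive Psmb6 1.79 ± 0.12. In Control the medians of the constitutive catalytic subunits and the lid were both 0.71, and the 3 members with the highest ratios were lid subunits. Psmd7, the partner of the deubiquitinase in the lid, had 1.04 ± 0.06, Psmd11 0.93 ± 0.06 and Psmd3 0.85 ± 0.08.

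A few members stood on the other side. Psmd1, the large base subunit that acts as a docking scaffold, had log2 ratios of -0.33, -0.24 and -0.35 in the Control lysates and -0.99, -1.05 and -0.84 in the DMSO lysates, so it was lower in polysomes in all 6. The lid subunit Psmd8 was lower in Control (-0.32 ± 0.09), and the activators Psme3 (-1.08 ± 0.09) and Psme4 (-0.51 ± 0.12) were lower in DMSO. In DMSO the Psmd8 value was -0.05 ± 0.10, which did not pass the test, and in Control Psme4 was higher in polysomes (0.47 ± 0.10). With the all-gene median moved by scaling without the ribosomal RNA counts, the share of higher calls among all called genes in Control went from 57.3 to 44.8%, while the members split 34 higher and 3 lower.

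The deprived and treated groups kept most members above 0 in this ratio. Without arginine 36 members were higher in polysome than in total RNA (39.9% of all genes) and 4 lower (31.1%), without BCAA 34 (35.9%) and 2 (33%), and without glucose 32 (35%) and 4 (30.8%). Without glutamine these numbers were 34 (34.1%) and 5 (35%), and without methionine 27 (39.4%) and 9 (38.6%), with a member median of 0.36. In the drug experiment 38 (28.7%) and 2 (28.5%) were higher and lower with halofuginone, 37 (28.1%) and 3 (27.4%) with Torin1 and 39 (27.5%) and 1 (24.4%) with 4EGI-1.

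**Figure D1:**
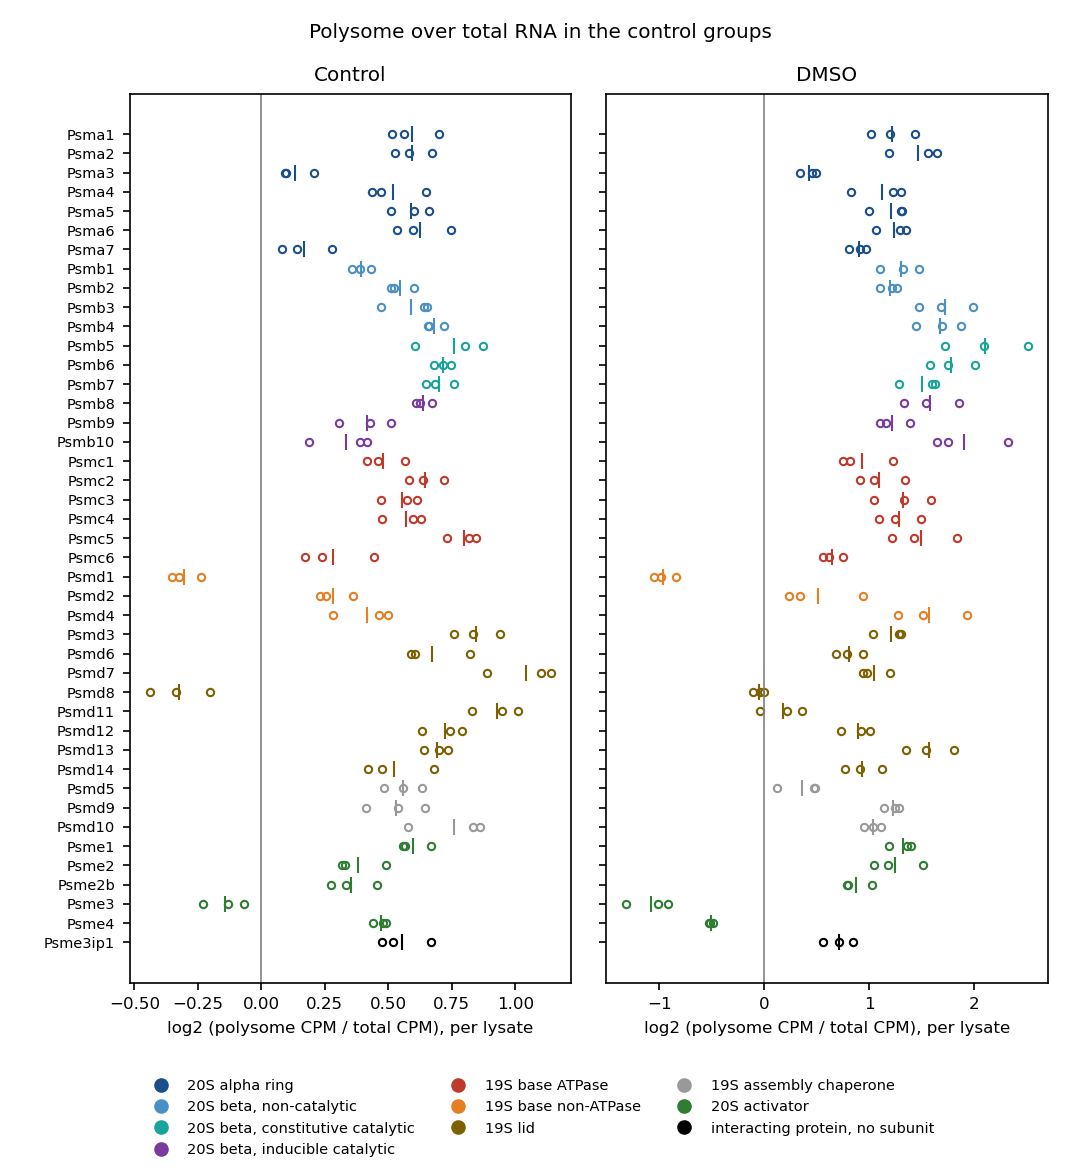
Log2 ratio of polysome over total CPM of each proteasome gene in the 3 Control lysates (left) and the 3 DMSO lysates (right); circles are lysates, vertical ticks are their means and colours mark roles, and the panels have different scales. Nearly all circles lie right of 0, while Psmd1 lies left of 0 in both panels, with fitted ratios of -0.31 in Control and -0.97 in DMSO.

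In total RNA, the changes of proteasome mRNAs after 3 h without a nutrient were small, at most 0.42 log2 units in size. Called falls outnumbered called rises except without glutamine. Without arginine 0 members rose (5.1% of all genes did) and 2 fell (4.14%); without BCAA 2 rose (16.4%) and 8 fell (13.6%). Without glucose 2 rose (21.8%) and 10 fell (19%), without glutamine 4 rose (20.4%) and 2 fell (18.6%), and without methionine 2 rose (19.5%) and 11 fell (15.7%). The member medians lay between -0.09 and -0.01, with all-gene medians between -0.01 and 0.02. All 5 deprivations share the same Control libraries.

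The ATPases of the base, which form the ring that unfolds substrates, gave 5 rises and 4 falls in 30 tests over the deprivations. Per deprivation 5.1 to 21.8% of all genes rose and 4.14 to 19% fell, and the ATPase counts lie within these shares. Psmc6 had 225, 210 and 225 CPM in Control and 249, 286 and 288 CPM without glutamine, a rise of 0.32 ± 0.07 (adjusted p = 0.0016). It also rose without BCAA (0.26), glucose (0.25) and methionine (0.20), with every library above all 3 Control libraries in these groups, while without arginine its 212, 205 and 249 CPM overlapped Control. Without Control replicate 2 the adjusted p of Psmc6 was 0.051 for BCAA and 0.056 for glucose, and without methionine the call was lost in 5 of the 6 fits that left out 1 library.

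Psmc1 went the other way. It had 194, 185 and 197 CPM in Control and 140, 152 and 144 CPM without methionine, a fall to 0.757 of Control (-0.40 ± 0.06, adjusted p = 2.8e-05). It fell too without arginine (-0.26), glucose (-0.25) and BCAA (-0.19), and had 0.08 without glutamine, which did not pass the test. The call without arginine was lost without Control replicate 3 or no-arginine replicate 2 (largest adjusted p 0.074), and the BCAA call in 5 of 6 such fits.

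Of the other base subunits Psmd1 (-0.25) and Psmd2 (-0.31) fell without methionine. Among the lid subunits Psmd12 fell without methionine (-0.37), Psmd7 fell without glucose (-0.31) and glutamine (-0.28), and Psmd13 fell without arginine (-0.23). The last call was lost in 4 of 6 fits that left out 1 library. In the core the constitutive subunit Psmb7 fell without methionine (-0.22), a call lost without Control replicate 3 (adjusted p = 0.055), and Psmb5, Psmb6 and Psmb9 passed the test in no deprivation. The inducible subunit Psmb8 fell without methionine (-0.31) and glucose (-0.18, a call lost in 4 of 6 such fits), and Psmb10, also inducible, fell without BCAA (-0.31), from 45.9, 47.8 and 47.4 CPM to 35.6, 42.6 and 35.9 CPM. The 3 Psmb10 libraries without BCAA lay below all 3 Control libraries.

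The activators cap the core in place of the regulatory particle. Psme4, the largest of them, had 156, 145 and 144 CPM in Control and fell without methionine to 136, 101 and 95.7 CPM (-0.42 ± 0.10). It also fell without BCAA (-0.34), a call lost without Control replicate 1 or no-BCAA replicate 2 (largest adjusted p 0.072). Psme3 fell without BCAA (-0.26) and glucose (-0.19), Psme2 without glucose (-0.31) and methionine (-0.25), and Psme1 without glutamine (-0.23).

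Single libraries decided several of these counts of called members. For arginine (2 called) the count was 1 without Control replicate 1 or no-arginine replicate 1, 0 without Control replicate 3 or no-arginine replicate 2, and 5 without no-arginine replicate 3. For BCAA (10) it was 5 without Control replicate 3 and 4 without no-BCAA replicate 2, and for glucose (12) it was 6 or 7 without Control replicate 2 or 3 or any of the 3 no-glucose libraries. Members called in every such fit were 0 for arginine, 3 for BCAA, 4 for glucose, 4 for glutamine and 9 for methionine.

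In polysome RNA the calls differed in direction by role. Those of the core, the lid and the activators were mostly falls, and those of the base of the regulatory particle were mostly rises. Without arginine 5 members rose (19% of all genes) and 13 fell (21.6%), without BCAA 6 rose (28.7%) and 19 fell (27.4%), and without glucose 5 rose (29.6%) and 25 fell (29.4%). Without glutamine 14 rose (32.2%) and 16 fell (32.4%), and without methionine 6 rose (34.3%) and 25 fell (34.7%). The member medians were -0.04, -0.14, -0.20, 0.00 and -0.29 in this order, with all-gene medians between -0.03 and -0.01.

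Counted over the 5 deprivations, the alpha ring gave 25 falls and 0 rises in 35 tests, the non-catalytic beta subunits 10 falls and 0 rises in 20, and the inducible subunits 10 falls and 1 rise in 15. The lid gave 23 falls and 1 rise in 40 tests and the activators 19 falls and 1 rise in 25. Psme2 and its close copy Psme2b gave 5 of the activator falls each, which may be 1 signal counted for both. The ATPases gave 14 rises and 1 fall in 30 tests, and the base subunits Psmd1, Psmd2 and Psmd4 gave 13 rises and 0 falls in 15. The constitutive catalytic subunits gave 4 falls and 1 rise in 15, and the assembly chaperones 6 falls and 1 rise. Single genes weighed on these totals. Psmb2 gave 5 of the non-catalytic beta falls, and Psmd7, Psmd8 and Psmd11 gave 5 of the lid falls each. Psmc6 gave 5 of the ATPase rises, and all ATPases rose without glutamine. Per deprivation 19 to 34.3% of all genes rose and 21.6 to 34.7% fell in polysome RNA. The falls of the constitutive catalytic subunits lie within the latter range. The tests share Control and are not independent. Psma3, Psma5, Psma7, Psmb2, Psmb8, Psmb9, Psmd7, Psmd8, Psmd11, Psme2, Psme2b and Psme3 fell in all 5 deprivations, and Psmc6, Psmd1 and Psmd2 rose in all 5. The share of all genes that did so was not computed, so whether the members stand out in this cannot be told. Psma1 and Psmb5 passed the test in none.

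**Figure D2:**
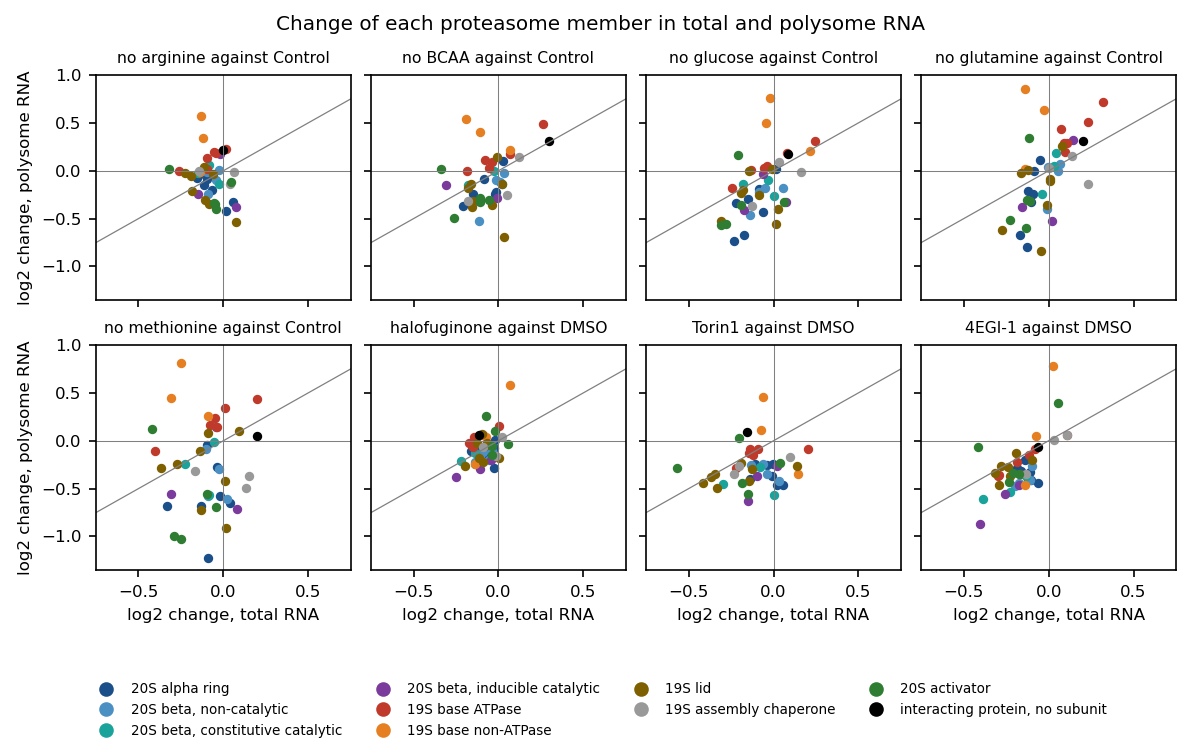
Log2 change of each proteasome gene in total RNA (x axis) and polysome RNA (y axis) for the 8 comparisons, each point 1 gene coloured by role; the diagonal marks equal change. Without methionine the points spread from -1.22 (Psma7) to 0.81 (Psmd1) on the y axis, while the x axis spans less than 1 log2 unit.

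The alpha ring, whose amino termini close the entry to the barrel, held the member with the deepest fall. Psma7 had 271, 324 and 295 CPM in Control polysomes and 127, 131 and 122 CPM without methionine, which is 0.428 of Control (-1.22 ± 0.08, adjusted p = 2.7e-10). Its other polysome levels were 201, 228 and 234 CPM without arginine, 264, 247 and 242 CPM without BCAA, 159, 185 and 191 CPM without glucose and 176, 190 and 193 CPM without glutamine. Every deprived library lay below all 3 Control libraries, and the BCAA call was lost without Control replicate 2 or no-BCAA replicate 2 or 3 (largest adjusted p 0.093). In total RNA the same gene had 255, 276 and 273 CPM in Control and 206, 299 and 250 CPM without methionine, which overlap. Psma3 fell most without glutamine (-0.79 ± 0.09), Psma5 without methionine (-0.68 ± 0.06) and glucose (-0.67 ± 0.06), and Psma1 stayed between -0.05 and 0.11.

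Among the catalytic subunits, the inducible Psmb8 and Psmb9 fell and the constitutive Psmb5 did not pass the test. Psmb8, the inducible counterpart of Psmb5, had 476, 496 and 497 CPM in Control polysomes and 311, 338 and 351 CPM without methionine (-0.56 ± 0.06). Psmb9, the counterpart of Psmb6, had 105, 118 and 117 CPM in Control and 63.2, 71.6 and 71.8 CPM without methionine (-0.72 ± 0.09). Both genes fell in each deprivation, by -0.25 to -0.56 and by -0.29 to -0.72 log2 units, with every deprived library below all 3 Control libraries.

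Psmb10, the inducible counterpart of Psmb7, behaved otherwise: it rose without glutamine (0.32 ± 0.10) and its other 4 values lay between -0.15 and 0.17. That call was lost without Control replicate 2 (adjusted p = 0.063). Psmb5 had 122, 129 and 137 CPM in Control and 115, 133 and 135 CPM without methionine, which overlap. Psmb6 fell without glucose (-0.27), glutamine (-0.24) and methionine (-0.56). Psmb7 rose without glutamine (0.18) and fell without methionine (-0.24). Of the non-catalytic beta subunits Psmb2 fell most, by -0.61 ± 0.07 without methionine and -0.52 ± 0.07 without BCAA.

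In the base, Psmd1 had 133, 121 and 123 CPM in Control polysomes. It had 210, 198 and 152 CPM without arginine, 199, 178 and 172 CPM without BCAA, 237, 214 and 185 CPM without glucose, 224, 247 and 209 CPM without glutamine and 204, 224 and 232 CPM without methionine. All 15 deprived libraries lay above the 3 Control libraries, and the rises were 0.57, 0.54, 0.76, 0.85 and 0.81 (± 0.11 each). Psmd2, the second scaffold of the base, had 431, 377 and 388 CPM in Control and 627, 658 and 570 CPM without glutamine (0.63 ± 0.10). It rose by 0.34 to 0.50 in the other deprivations, where its call for arginine was lost without no-arginine replicate 1 (adjusted p = 0.083). The ubiquitin receptor Psmd4 rose by 0.21 to 0.26 without BCAA, glucose and methionine, where the BCAA and glucose calls were lost without Control replicate 2 (adjusted p = 0.056 and 0.069), the latter also without no-glucose replicate 1.

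Of the ATPases Psmc6 had 266, 276 and 248 CPM in Control polysomes and 424, 456 and 415 CPM without glutamine (0.71 ± 0.07, adjusted p = 6e-08). Its rises without BCAA (0.49), methionine (0.44), glucose (0.31) and arginine (0.23) were smaller, and the arginine call was lost in 3 of 6 fits that left out 1 library. Without glutamine all 6 ATPases rose, from 0.19 (Psmc3, lost without no-glutamine replicate 2) to 0.71 (Psmc6). Psmc1 gave the only fall among them, -0.18 without glucose, a call lost in 5 of 6 such fits.

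The lid removes ubiquitin from substrates. Psmd8, a structural subunit of the lid, had 339, 420 and 380 CPM in Control polysomes, 194, 218 and 224 CPM without glutamine and 197, 211 and 199 CPM without methionine. Its falls were -0.54 (arginine), -0.69 (BCAA), -0.56 (glucose), -0.84 (glutamine) and -0.91 (methionine), each ± 0.09, and no deprived library reached the lowest Control library. In total RNA Psmd8 had 459, 500 and 491 CPM in Control and 424, 527 and 515 CPM without methionine, and it passed the test in none of the 5 deprivations. Psmd7 fell by -0.34 to -0.72 and Psmd11 by -0.30 to -0.42. Psmd14, the deubiquitinase itself, rose without glutamine (0.26) and had values between 0.02 and 0.14 in the others.

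Of the activators Psme1 and Psme2 form the ring induced by interferon, Psme3 forms a nuclear ring and Psme4 is a single chain. Psme2 had 254, 285 and 258 CPM in Control polysomes and 130, 132 and 129 CPM without methionine (-1.03 ± 0.06, adjusted p = 1.2e-10). Psme1 fell without methionine (-0.56), glutamine (-0.52), glucose (-0.33) and BCAA (-0.30). Psme3 had 170, 186 and 186 CPM in Control and 118, 112 and 107 CPM without methionine (-0.69 ± 0.08). In contrast to these, Psme4 rose without glutamine (0.34 ± 0.09) and had values between 0.02 and 0.16 in the others. The chaperone Psmd9 fell without methionine (-0.50), glucose (-0.37) and BCAA (-0.26).

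**Figure D3:**
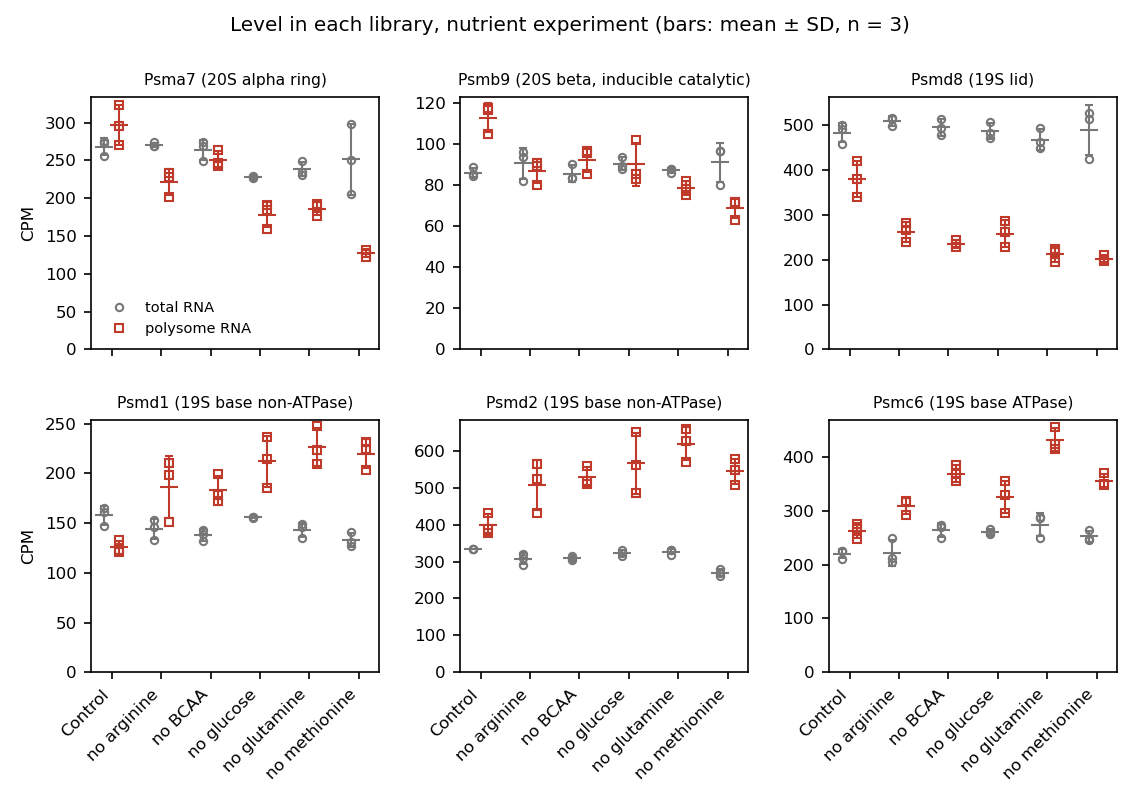
CPM of 6 proteasome genes in each library of the nutrient experiment; circles are total RNA, squares polysome RNA, and bars the mean ± SD (n = 3), each fraction scaled on its own. Polysome levels of Psma7, Psmb9 and Psmd8 lie lower in every deprivation than in Control, those of Psmd1, Psmd2 and Psmc6 lie higher, and total RNA levels move less.

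In the deprivations the polysome calls were more stable than those of total RNA when 1 library was left out: 30 of 31 calls without methionine, 27 of 30 without glutamine, 24 of 30 without glucose, 20 of 25 without BCAA and 11 of 18 without arginine held in every such fit. The drug experiment went the other way. With Torin1 1 of 11 polysome calls held, against 4 of 8 in total RNA, and with 4EGI-1 3 of 21 against 3 of 12. No call changed sign in these fits, which was unlikely from the outset for changes that are large against their standard error.

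The change of the polysome over total ratio sets each polysome library against the total RNA of its condition, in 1 model over both fractions. Without arginine 2 members rose (6.72% of all genes) and 7 fell (9.81%), without BCAA 2 rose (8.03%) and 14 fell (18.9%), and without glucose 2 rose (8.84%) and 14 fell (16.9%). Without glutamine 3 rose (9.98%) and 15 fell (25.2%), and without methionine 6 rose (19.2%) and 23 fell (29.9%). The member medians were 0.02, -0.19, -0.20, -0.12 and -0.24, beside all-gene medians of -0.04, -0.12, -0.08, -0.15 and -0.14.

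How many members fell in this ratio depended on the scaling between the fractions. With size factors by the median ratio (RLE) the splits of rises and falls were 2 and 5, 2 and 8, 3 and 8, 6 and 11, and 8 and 21 in the same order of deprivations. The ribosomal RNA counts took 0.892 to 5.11% of total RNA, most in no-arginine replicate 2, and 0.0755 to 0.285% of polysome RNA. In total RNA they were nearly all mitochondrial (4.98 of the 5.11% in that library). Scaled without the ribosomal RNA counts, the splits of rises and falls were 9 and 4, 3 and 3, 3 and 7, 6 and 10, and 10 and 20. That scaling moved the median of all genes by 0.07, 0.14, 0.13, 0.16 and 0.12 and the share of rises among all called genes from 40.7 to 61.0%, 29.8 to 60.5%, 34.3 to 60.0%, 28.4 to 54.5% and 39.2 to 50.6%. With RLE these shares were 42.6, 43.0, 51.0, 49.5 and 46.3%. The move of the all-gene median did not follow the ribosomal RNA share of total RNA. It was smallest without arginine (0.07), where that share was 1.59 to 5.11%, and largest without glutamine (0.16), where it was 0.892 to 1.19%. The cause of the move was not tested. Of the 88 member calls against Control 0 changed sign under either scaling, and 68 (RLE) and 59 (without ribosomal RNA) were still called.

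By role the calls mostly kept the direction they had in polysome RNA, but the ATPases gave far fewer rises. Under the main scaling 6.72 to 19.2% of all genes rose and 9.81 to 29.9% fell per deprivation. The ATPase rises under that scaling lie within the former range. The base subunits gave 11 rises and 0 falls in 15 tests under each of the 3 scalings. The alpha ring gave 17 falls and 0 rises in 35 tests (13 falls with RLE, 10 without ribosomal RNA), the inducible subunits 9 falls and 0 rises in 15 (6 and 5) and the lid 15 falls and 0 rises in 40 (13 and 11 falls, with 1 rise in the last). The ATPases gave 3 rises in 30 tests (7 and 13) and the activators 1 rise and 14 falls in 25 (3 and 10 with RLE, 5 and 8 without ribosomal RNA). Under the main scaling the chaperones and the non-catalytic beta subunits gave 7 falls each and the constitutive catalytic subunits 3, with 0 rises. Single genes made up most of some totals under that scaling. Psmd1 and Psmd2 gave 5 of the base rises each, and Psmd7, Psmd8 and Psmd11 gave 5, 5 and 4 of the lid falls.

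Psmd1 rose in the ratio in all 5 deprivations. Its log2 ratios were -0.33, -0.24 and -0.35 in the Control lysates, 0.52, 0.59 and 0.01 without arginine and 0.46, 0.72 and 0.80 without methionine. Every deprived lysate thus lay above Control, and the changes were 0.69, 0.63, 0.69, 0.85 and 0.97 for arginine, BCAA, glucose, glutamine and methionine. Psmd2 rose by 0.45, 0.41, 0.46, 0.52 and 0.67, where the arginine call was lost without no-arginine replicate 1 (adjusted p = 0.096).

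Psmd8 fell in the ratio in all 5, by -0.63, -0.83, -0.65, -0.94 and -1.02. Its Control lysates had -0.44, -0.20 and -0.34 and those without methionine -1.18, -1.37 and -1.44, with no overlap. Psma7 fell from 0.08, 0.28 and 0.14 in Control to -0.76, -1.24 and -1.10 without methionine (-1.22 ± 0.13, adjusted p = 5e-09). Its fall without BCAA (-0.33 ± 0.13) did not pass the test. Psmb9 (-0.39 to -0.89), Psmd7 (-0.27 to -0.68) and Psme2 (-0.30 to -0.87) also fell in all 5. The share of all genes that changed in the same direction in all 5 was not computed. Psmd1, Psmd2 and Psmd8 were called in all 5 deprivations under the other scalings too, while scaling without ribosomal RNA left 4 calls for Psmb9, 4 for Psma7, 2 for Psmd7 and 1 for Psme2, and RLE left 1 for Psme2. When 1 lysate was left out, the arginine and BCAA calls of Psmb9 were lost in 1 and 2 of 6 fits (largest adjusted p 0.090 and 0.074), and the arginine call of Psme2 in 6 of 6. The arginine call of Psma7 was lost without Control replicate 2 or no-arginine replicate 1 (largest adjusted p 0.12) and that of Psmd7 in 4 of 6 fits. Psmd7 also lost its glucose call in 2 fits, and Psme2 lost its BCAA, glucose and glutamine calls in 2, 3 and 1 fits, the last without Control replicate 2.

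Psmb5, Psmb7 and Psmb10 were among 12 members with no call in the ratio in any deprivation, together with Psma1, Psmb4, Psmc4, Psmc5, Psmc6, Psmd3, Psmd12, Psmd13 and Psmd14. The share of all genes without such a call was not computed. The Control lysates of Psmb5 had 0.60, 0.80 and 0.87 and those without methionine 0.79, 0.68 and 0.67, which overlap. For arginine (9 called) the count of members was 4 without Control replicate 2, 2 without no-arginine replicate 1 and 13 without no-arginine replicate 3. For BCAA (16) it was 8 without Control replicate 2 and 9 without no-BCAA replicate 1.

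**Figure D4:**
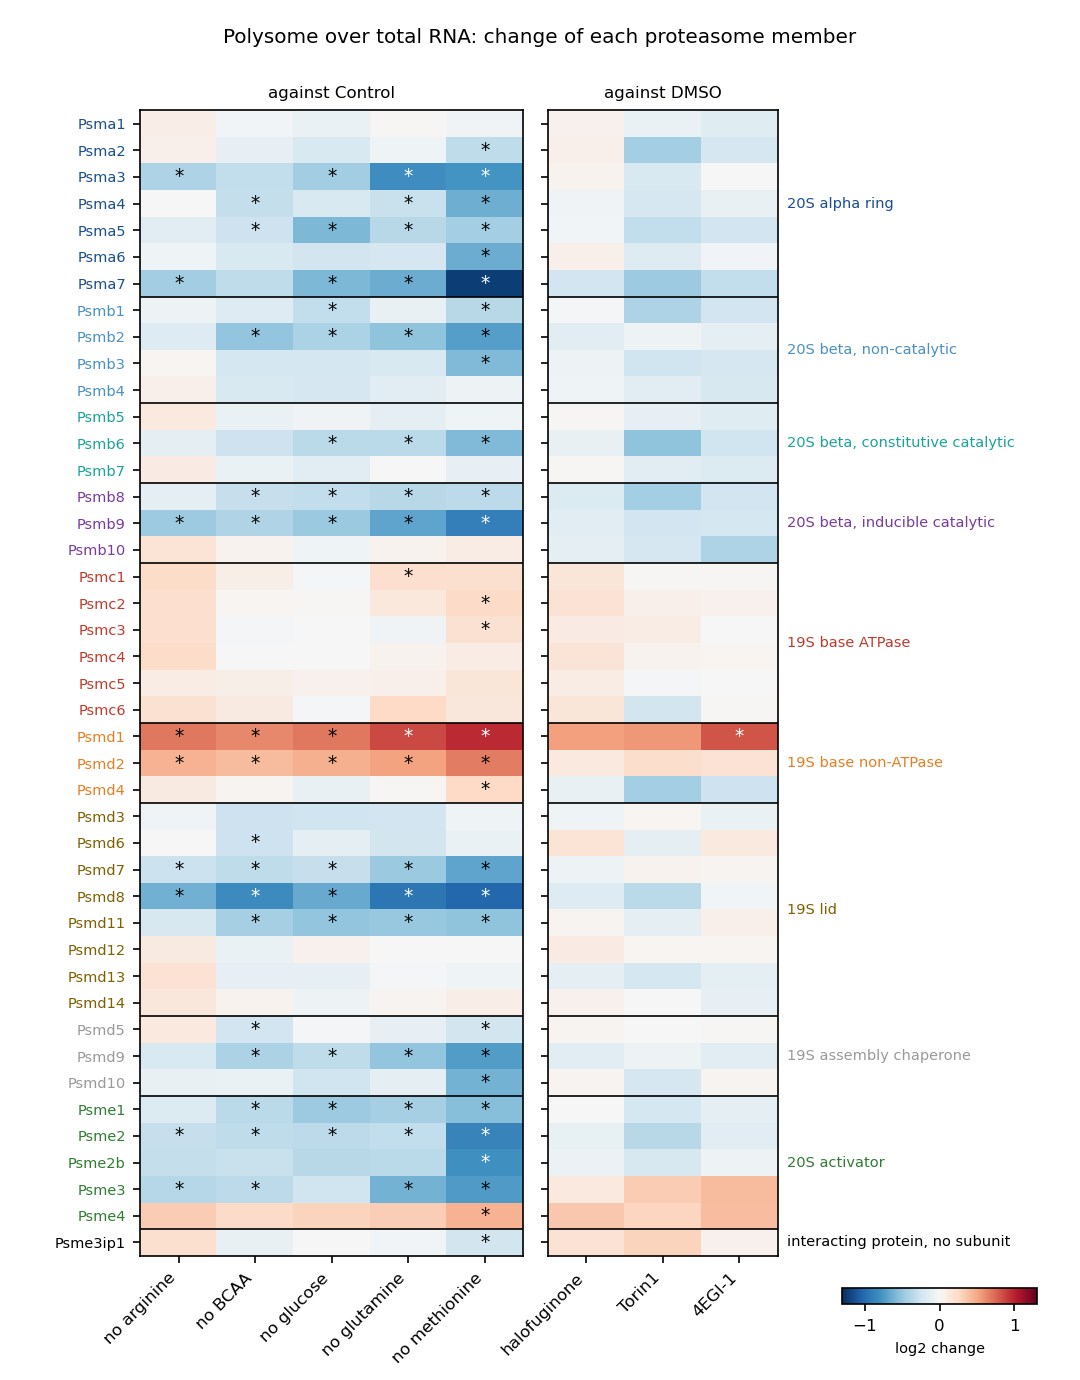
Log2 change of the polysome over total ratio of each proteasome gene (rows, grouped by role) in the 5 deprivations against Control and the 3 drugs against DMSO; colour gives the change and asterisks mark an adjusted p under 0.05. Psmd1 and Psmd2 are red and called in all 5 deprivations, Psmb9, Psmd7, Psmd8 and Psme2 are blue and called in all 5, and in the drug columns only Psmd1 with 4EGI-1 is called.

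The starts of the mRNAs with the clearest opposite changes in the ratio were read from RefSeq promoters of build GRCm38.p6, because a C followed by pyrimidines at the start (a TOP motif) is known to tie polysome loading to mTOR. Each line gives 10 bases before the annotated start and the first 15 bases of the transcript, on the strand of the gene, with any pyrimidine run that begins at the start base in capitals.
Psmd1 (chr1:86064609-86064633, plus strand): gggcagccctagggcgggcggggtc
Psmd2 (chr16:20651642-20651666, plus strand): caacgcgcgtggccttctgggaaaa
Psma7 (chr2:180042450-180042474, minus strand): ccctgacgccagacgccagcagcgt
Psmd8 (chr7:29180659-29180683, minus strand): ttcgccatttTgaatgacagcagag
Psmb9 (chr17:34187316-34187340, minus strand): tgattggaaagccgagccccgctct
Neither the genes that rose nor those that fell begin with a C and a run of at least 5 pyrimidines at these annotated starts. Of the 43 members 37 matched the promoter table, with 41 starts, and 0 of the 41 had such a start, against 822 of 32841 starts in the table (2.5%). At a share of 2.5%, 41 starts are too few to tell 0 from that share. Psmd7, which fell in the ratio in all 5 deprivations, was among the 6 members without a promoter. Annotated starts need not be those used in these cells, and a role of TOP motifs was not tested.

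Deprivation of methionine was set directly against the other deprivations. In polysome RNA 24 members were lower without methionine than without arginine (25.7% of all genes) and 2 were higher (28.2%). Against BCAA 21 were lower (23.1%) and 4 higher (21.7%), against glucose 17 lower (27.6%) and 2 higher (25.1%), and against glutamine 22 lower (23.6%) and 2 higher (22.2%). In total RNA the members lower without methionine were 2 against arginine (10.7%), 3 against BCAA (6.68%), 6 against glucose (16.6%) and 10 against glutamine (12.9%), with 1 (14.4%), 2 (6.68%), 4 (17.4%) and 0 (12.8%) higher. In the polysome over total ratio 23 members were lower without methionine than without arginine (16.8%), 12 than without BCAA (9.85%), 14 than without glucose (17.1%) and 7 than without glutamine (8.47%). The members higher in that ratio were 0 (7.03%), 0 (4.92%), 1 (12.1%) and 1 (8.32%). Among the other pairs of deprivations, total RNA of the members differed in 4 genes between arginine and BCAA (20.3% of all genes), 7 between arginine and glucose (37.2%), 11 between arginine and glutamine (36.1%), 4 between BCAA and glucose (28.7%), 4 between BCAA and glutamine (14.2%) and 9 between glucose and glutamine (32.5%).

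In the drug experiment, total RNA showed 0 members called with halofuginone in either direction (0.239% of all genes rose and 0.0399% fell), where 1 member had an unadjusted p under 0.05 and DESeq2 called 0. With Torin1 1 member rose (13.3%) and 7 fell (13.3%), and with 4EGI-1 0 rose (14.1%) and 12 fell (12.3%). The member medians were -0.09, -0.12 and -0.17, with all-gene medians between 0.00 and 0.01. The 3 drugs share the DMSO libraries. Replicates are numbered 1, 3 and 4 for DMSO and Torin1, but 2, 3 and 4 for halofuginone and 4EGI-1. Replicate 2 of halofuginone and 4EGI-1 thus has no DMSO library of its number, and DMSO replicate 1 has none of theirs. Drug and replicate number cannot be fully told apart for these 2 drugs.

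Psme3, the nuclear activator, fell most with Torin1. It had 348, 383 and 350 CPM with DMSO, 245, 249 and 235 CPM with Torin1 (-0.57 ± 0.06, adjusted p = 6.9e-06) and 277, 263 and 269 CPM with 4EGI-1 (-0.42 ± 0.06). Neither drug group overlapped DMSO. Several lid subunits fell with both drugs, Psmd7 by -0.35 and -0.32, Psmd11 by -0.33 and -0.28 and Psmd12 by -0.37 and -0.24 with Torin1 and 4EGI-1. Psmd3 fell with Torin1 (-0.42), a call lost in 4 of 6 fits that left out 1 library, as was the 4EGI-1 call of Psmd12 in 5 of 6.

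Of the 6 catalytic subunits 4 fell with 4EGI-1 (12.3% of all genes did), and Psmb7 and Psmb9 passed the test with no drug. Psmb10 went from 62.0, 56.5 and 60.3 CPM to 36.1, 47.1 and 51.9 CPM (-0.41 ± 0.12), and Psmb5 from 80.1, 74.2 and 84.6 CPM to 50.1, 62.8 and 70.0 CPM (-0.39 ± 0.11). All 4EGI-1 libraries lay below all DMSO libraries for both genes, with 4EGI-1 replicate 2 the lowest. Mitochondrial ribosomal RNA took 0.614 to 0.968% of counts in the 4EGI-1 total libraries, most in replicate 2, and 0.142 to 0.207% in those with DMSO. With ribosomal RNA entries left out of the scaling, all 20 member calls of total RNA in the drug experiment were still made. Without that library the adjusted p values exceeded the threshold, and the largest over the fits that left out 1 library were 0.092 (Psmb10) and 0.077 (Psmb5). Psmb8 (-0.26) and Psmb6 (-0.23) also fell, calls lost in 4 and 5 of 6 such fits. Psmc6 rose with Torin1 (0.20), a call lost in 4 of 6 such fits. The count for Torin1 (8) was 5 without DMSO replicate 4 or Torin1 replicate 1 and 4 without Torin1 replicate 3. The count for 4EGI-1 (12) was 4 without 4EGI-1 replicate 2 or DMSO replicate 4, 5 without 4EGI-1 replicate 3 or DMSO replicate 1 and 19 without 4EGI-1 replicate 4.

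In polysome RNA, halofuginone gave 0 member calls (0.0409% of all genes rose and 0.00818% fell), with 3 members at an unadjusted p under 0.05 and 0 called by DESeq2. With Torin1 1 member rose (8.48%) and 10 fell (8.3%), and with 4EGI-1 2 rose (14.1%) and 19 fell (14.5%). The member medians were -0.28 with Torin1 and -0.34 with 4EGI-1, with all-gene medians of -0.02 and 0.00.

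Of the 17 genes of the core 7 fell with Torin1 (8.3% of all genes did) and 12 with 4EGI-1 (14.5%), and none rose with either. Psmb8 had 1251, 1436 and 1132 CPM in DMSO polysomes, 831, 807 and 827 CPM with Torin1 (-0.63 ± 0.14, adjusted p = 0.0061) and 788, 1001 and 800 CPM with 4EGI-1 (-0.56 ± 0.14). Both drug groups lay below DMSO, and these calls held when any 1 library was left out. Psmb10 had 191, 262 and 176 CPM with DMSO and 81.1, 138 and 126 CPM with 4EGI-1 (-0.87 ± 0.18, adjusted p = 0.0021), again without overlap.

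Psmb5 went from 313, 392 and 262 CPM to 189, 242 and 204 CPM with 4EGI-1 (-0.60 ± 0.16) and had -0.45 ± 0.16 with Torin1, which did not pass the test. Psmb6 fell with Torin1 (-0.56) and 4EGI-1 (-0.54), and Psmb7 (-0.36) and Psmb9 (-0.46) fell with 4EGI-1. The Psmb7 and Psmb9 calls were lost in 5 and 4 of 6 fits that left out 1 library. Without DMSO replicate 3, the highest of the DMSO libraries for these genes, the adjusted p was 0.066 for Psmb5 and 0.055 for Psmb6 with 4EGI-1 and 0.058 for Psmb6 with Torin1.

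Psmd1 rose with 4EGI-1 and Torin1, where most calls were falls. It had 64.6, 69.0 and 66.7 CPM in DMSO polysomes, 131, 99.2 and 114 CPM with 4EGI-1 (0.78 ± 0.16, adjusted p = 0.0016) and 87.9, 104 and 83.7 CPM with Torin1 (0.46 ± 0.15, adjusted p = 0.049). Every library of both drugs lay above DMSO, and so did the 3 halofuginone libraries at 111, 113 and 76.3 CPM, where the change of 0.58 ± 0.15 did not pass the test (adjusted p = 0.24). The Torin1 call was lost in 6 of 6 fits that left out 1 library, and the 4EGI-1 call in none. Psme4 rose with 4EGI-1 (0.40), a call lost in 5 of 6 such fits. The interferon-induced activator Psme2 fell with Torin1 (-0.56) and 4EGI-1 (-0.43), and Psme1 fell with 4EGI-1 (-0.35). The Torin1 call of Psme2 was lost without DMSO replicate 3 (adjusted p = 0.058), and the 4EGI-1 calls of Psme2 and Psme1 were lost in 3 and 5 of 6 such fits. The count for Torin1 (11) was 3 without DMSO replicate 1, 2 without DMSO replicate 3, 6 without Torin1 replicate 1 and 4 without Torin1 replicate 3 or 4. The count for 4EGI-1 (21) was 3 without DMSO replicate 3, 9 without DMSO replicate 1 and 8 without 4EGI-1 replicate 2 or 4. The polysome libraries of 4EGI-1 replicate 2 and Torin1 replicate 3 carry an R in their names, whose meaning is not given.

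**Figure D5:**
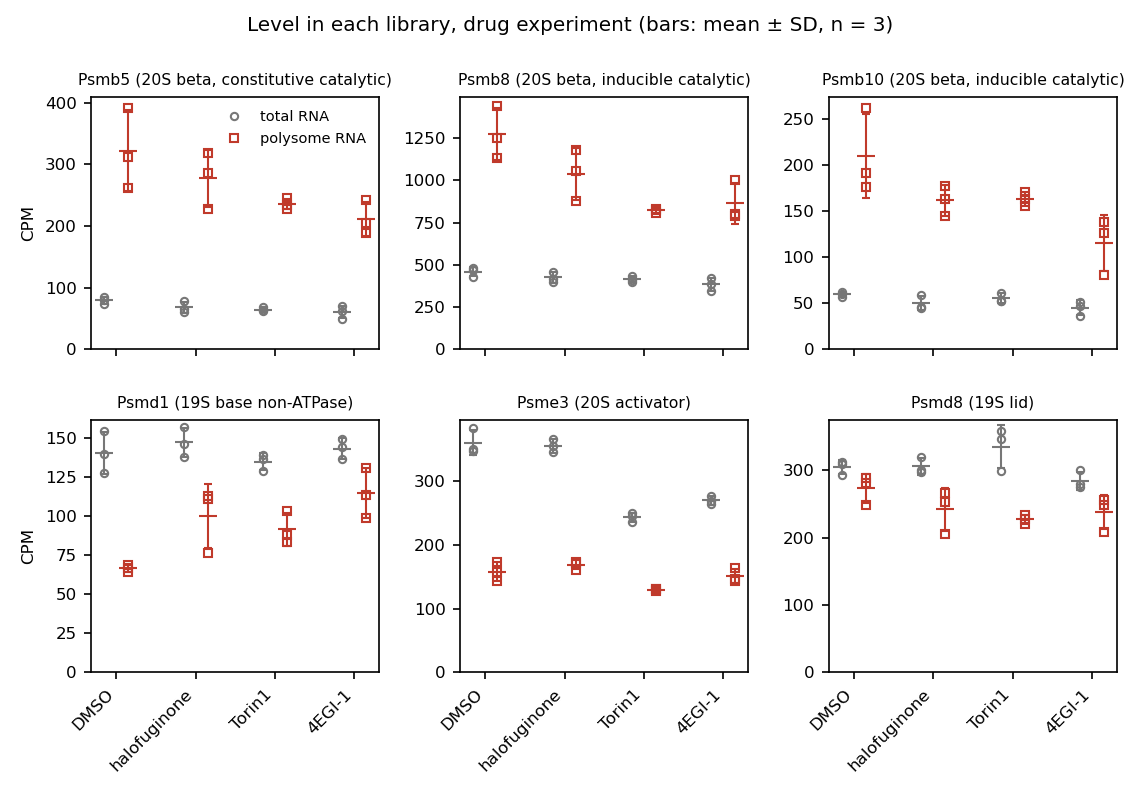
CPM of 6 proteasome genes in each library of the drug experiment; circles are total RNA, squares polysome RNA, and bars the mean ± SD (n = 3), each fraction scaled on its own. Polysome levels of Psmb5, Psmb8 and Psmb10 lie lower with 4EGI-1 than with DMSO, Psmd1 lies higher in polysomes with all 3 drugs, and Psme3 lies lower in total RNA with Torin1 and 4EGI-1.

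The polysome over total ratio gave 1 member call among the drugs. Psmd1 rose with 4EGI-1 (0.82 ± 0.18, adjusted p = 0.036; 0.282% of all genes rose and 0.282% fell), from log2 ratios of -0.99, -1.05 and -0.84 to 0.05, -0.42 and -0.10. It was lost without 4EGI-1 replicate 2 or 4 or DMSO replicate 1 or 3, with a largest adjusted p of 0.21. With Torin1 0 members were called (0.118% of all genes rose and 1.67% fell), the smallest adjusted p was 0.11, 11 members had an unadjusted p under 0.05 (2 higher, 9 lower) and DESeq2 called 4. Total and polysome RNA came from the same lysates, and with the lysate as a block 1 member was called with Torin1, as a rise. With halofuginone 0 were called (0% of all genes in either direction), 2 had an unadjusted p under 0.05 and DESeq2 called 0.

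Other genes that serve the proteasome were taken from a list of 28, of which 26 were measured. In total RNA 2, 7, 8, 5 and 7 of the 26 rose and 2, 3, 5, 5 and 2 fell in the 5 deprivations, in the order arginine, BCAA, glucose, glutamine, methionine, where 5.1, 16.4, 21.8, 20.4 and 19.5% of all genes rose and 4.14, 13.6, 19, 18.6 and 15.7% fell. In polysome RNA 4, 8, 6, 7 and 8 rose and 11, 10, 12, 12 and 12 fell, where 19, 28.7, 29.6, 32.2 and 34.3% of all genes rose and 21.6, 27.4, 29.4, 32.4 and 34.7% fell. Nfe2l1, the transcription factor that induces proteasome genes when proteasome activity is short, rose in total RNA in all 5 deprivations, by 0.37, 1.08, 0.70, 1.10 and 0.66, and with halofuginone (0.42 ± 0.08). It fell with Torin1 (-0.25). Ddi2, the protease that activates Nfe2l1, fell without arginine (-0.40), BCAA (-0.49), glucose (-0.60) and glutamine (-0.50) and with Torin1 (-0.63), and rose with 4EGI-1 (0.40).

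The assembly factor Pomp, which helps build the beta ring, fell in polysome RNA in all 5 deprivations, by -0.33, -0.33, -0.54, -0.24 and -0.80, and with Torin1 (-0.45) and 4EGI-1 (-0.55). Psmg1, part of the chaperone of the alpha ring, also fell in polysomes in all 5 (-0.20 to -0.66). Usp14, a deubiquitinase that binds the base at Psmd2, rose in polysomes without BCAA (0.37), glutamine (0.22) and methionine (0.65). Zfand2a, a stress protein that binds the proteasome, rose in total RNA in all 5 (0.30 to 1.05) and with 4EGI-1 (0.82). The ubiquitin receptor gene Adrm1 fell in total RNA with Torin1 (-0.30) and 4EGI-1 (-0.22) and was between -0.05 and 0.16 in the deprivations, without a call. The other genes called in over 4 of the 8 comparisons of total RNA were Nfe2l2 (0.31 to 0.88 in the 4 deprivations where it rose), Zfand5 (0.23 to 0.34 in the 4 where it rose, and -0.39 with Torin1), Ube3c (-0.26 to -0.44 in the 4 where it fell) and Ubqln4 (-0.31 to -0.50 in the 4 where it fell). In total RNA 1 of the 26 rose and 0 fell with halofuginone, 1 rose and 9 fell with Torin1, and 4 rose and 4 fell with 4EGI-1. The shares of all genes were 0.239 and 0.0399%, 13.3 and 13.3%, and 14.1 and 12.3%.

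Rps27a, which fuses ubiquitin to a ribosomal protein, fell in polysomes in all 5 deprivations (-0.43, -0.27, -0.74, -0.30 and -0.44) and with Torin1 (-1.02) and 4EGI-1 (-0.95). Of 10 genes that supply peptides to MHC class I, 9, 4, 3, 4 and 6 rose in polysomes and 1, 1, 1, 2 and 1 fell, beside the same shares of all genes (19, 28.7, 29.6, 32.2 and 34.3% rose). The peptide transporter genes Tap1 and Tap2 rose without methionine (1.27 and 1.00), where the inducible subunits Psmb8 and Psmb9 fell, and the light chain B2m fell (-0.81). Irf1, a known regulator of the inducible subunits, rose in polysomes in all 5 deprivations (0.41 to 1.65) and fell with 4EGI-1 (-0.69).

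The members' promoters were searched for the core of the element that Nfe2l1 and its relatives bind, TGACNNNGC, on both strands of the 300 bases around each start. It was present in 6 of 41 member promoters (14.6%), against 12.4% of all 32841 promoters. These belonged to Psmb5, Psmb6, Psmc6, Psmd9, Psmd12 and Psme4. The matches of these 6 members are shown with the motif in capitals, on the strand of the gene.
Psmc6 (chr14:45329587-45329615, plus strand): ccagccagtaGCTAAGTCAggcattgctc
Psmb5 (chr14:54618024-54618052, minus strand): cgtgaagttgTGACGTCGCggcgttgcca
Psmb6 (chr11:70525338-70525366, plus strand): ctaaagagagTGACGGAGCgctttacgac
Psme4 (chr11:30771758-30771786, plus strand): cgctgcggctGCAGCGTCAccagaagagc
Psmd9 (chr5:123228149-123228177, plus strand): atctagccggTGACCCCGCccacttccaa
Psmd12 (chr11:107479278-107479299, plus strand): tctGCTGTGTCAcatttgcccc
In total RNA Psmc6 rose in 4 deprivations and Psmd9 without glutamine (0.23), Psme4 fell in 2 and Psmd12 without methionine (-0.37), and Psmb5 and Psmb6 passed the test in none. The Psmd9 call was lost in 2 of 6 fits that left out 1 library. CCAAT was found in 34.1% of member promoters and 37.4% of all, and the motif TTCNNNGAA in 4.88% (Psmb8 and Psmd2) and 8.3%. The interferon response core (GAAA, any 2 bases, GAAA) was found in 9.76% and 3.44%. Its 4 member genes were Psmb3, Psmd4, Psmd9 and Psme1, with none of the inducible subunits Psmb8, Psmb9 and Psmb10. No matches to different motifs overlapped. A match is a description of the sequence and says nothing of binding in these cells.

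The genes whose mean log2 CPM over the 6 nutrient groups of total RNA most resembled the mean of the members were Tatdn2 (Pearson r 0.987), Usp7 (0.981), Cttn (0.976), Plpp1 (0.975) and Hes6 (0.975). Over 6 group means of nearly flat profiles these are a description.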

How the data were processed

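The authors deposited raw read counts per gene, made with Trimmomatic, STAR and HTSeq on mouse build GRCm39 per the submitters' processing notes; versions and strand setting are not given in the sources used here. The 60 total and polysome libraries were used, and 18 monosome libraries were not analysed here. Members and gene lists were chosen with earlier results of these data known. In R 4.3.3, edgeR 4.0.16 fitted each experiment and fraction apart (filterByExpr with a minimum count of 10, TMM scaling, quasi-likelihood F test, Benjamini-Hochberg adjustment over all genes tested, 12223 to 12642 genes). A joint fit over both fractions (13072 and 12745 genes) gave the polysome over total ratio and, as an interaction, its change. The standard error is the size of the log2 fold change over the square root of F. The code was tested on simulated data. DESeq2 1.42.0, other scalings, filters and blocks were alternatives.

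Genes were named by a rule: per comparison the 3 called members with the largest change, the catalytic subunits, the activators, the extremes of each role, and listed proteasome genes called in over 4 of the 8 comparisons of total RNA. In total and polysome RNA the first of these had to have all 3 libraries outside the range of the control. Nfe2l1, Pomp, Adrm1, Usp14 and Zfand2a were to be named whatever their calls. Other genes given with values, such as Rps27a, Tap1, Tap2, B2m and Irf1, were chosen outside this rule. Deviations of libraries with the same replicate number in other conditions correlated at -0.46 to 0.80 (nutrient) and -0.51 to 0.67 (drug). The mean correlations per fraction were 0.16 and 0.26 (nutrient) and 0.23 and 0.16 (drug). The numbers were not taken as pairs in the main fits. Total and polysome libraries of the same lysate correlated at -0.13 to 0.76 (nutrient, mean 0.27) and -0.05 to 0.70 (drug, mean 0.30). The main joint fit did not pair them either, and the lysate as a block was an alternative. Total counts were 15144663 to 30637485 (nutrient, total), 29917770 to 54272886 (nutrient, polysome), 17506526 to 23099949 (drug, total) and 17846266 to 24929556 (drug, polysome). Promoter sequences came from RefSeq (GRCm38.p6).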

Additional observations from a re-analysis of the deposited data

How the results depend on the processing

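Numbers of members called are given here. No called member changed sign when 1 library was left out or under either other scaling. Called changes are large against their standard error, so a change of sign was unlikely from the outset and its absence says little. With only the 2 groups compared in the fit, total RNA gave 19 (not 12) for glucose, 8 (not 13) for methionine and 6 (not 12) for 4EGI-1, and polysome RNA gave 8 (not 21) for 4EGI-1. DESeq2 gave 4 (not 2) in total RNA without arginine, and for the polysome over total ratio 4 (not 0) with Torin1 and 2 (not 1) with 4EGI-1; the lysate as a block gave 1 with Torin1. No filter gave 7 (not 11) in polysome RNA with Torin1. In the ratio without BCAA (16) RLE gave 10 and scaling without ribosomal RNA 6, and without glucose (16) the latter gave 10. With the replicate number as a block polysome RNA gave 12 (not 21) for 4EGI-1, and no other count moved by over 1.5 times. The cause was not tested.

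Leaving out 1 library or lysate gave these ranges. Total RNA had 0 to 5 (arginine), 4 to 8 (BCAA), 6 to 11 (glucose), 4 to 6 (glutamine), 9 to 16 (methionine), 4 to 7 (Torin1) and 4 to 19 (4EGI-1), and 53 to 79 calls over the 10 pairs of deprivations. Polysome RNA had 13 to 18, 21 to 24, 26 to 30, 28 to 30, 30 to 32, 2 to 11 and 3 to 18 in the same order. The ratio had 2 to 13, 8 to 16, 11 to 17, 16 to 18 and 26 to 27 in the deprivations and 0 to 1 with 4EGI-1. For the 63 largest changes (up to 3 members a comparison), 711 of 738 alternative values kept their side of the threshold, 27 lost it and 0 reversed; over all 399 member calls, 279 held in every fit that left out 1 library or lysate. With 3 libraries a group, small changes could not be told from the spread.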
